A study of Mus musculus with 29 samples.

Results

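Gene expression within the induction of heart failure (HF) was compared between HF week 3, with 2 libraries, and HF week 5, with 3 libraries, which are 5 of the 24 mouse heart libraries used from the series. Both groups are C57BL6 mice (C57BL/6J in the methods of the study) that were 3 months old at the start and were given salt (1% NaCl) in the drinking water together with L-NAME at 0.3 mg/ml, which blocks the synthesis of nitric oxide. After 1 week of this water an osmotic pump that runs for 28 days was implanted, giving 0.7 mg/kg/day of angiotensin II, so that the week 3 hearts had received the hormone for 2 weeks and the week 5 hearts for 4 weeks. Treatment ended at week 5. Control week 19, with 5 libraries of untreated mice matched in age to the recovered hearts, is given as a reference, although these mice were 14 weeks further into the study than the week 5 hearts. The labels give whole ventricle as the tissue, the methods of the study say that apical portions were frozen, and the experiment was repeated in cohorts that the labels do not tell apart. Nothing links a library to a single animal in the labels, so each library was taken as 1 heart. Values are FPKM, fragments scaled by transcript length and by the mapped fragments of the library, and differences are on the log2(FPKM + 0.5) scale, week 5 minus week 3, with the standard error (SE) of the model. The p-values measure only the spread between these libraries, and the absolute depth of the libraries is unknown because the files hold no counts.

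Angiotensin II raises blood pressure and acts directly on cardiac fibroblasts, which lay down collagens and the proteins that organise and crosslink them, and the loss of nitric oxide adds to the load. Fibroblasts make most of the interstitial collagen of the heart, whereas type IV collagen belongs to the basement membrane around muscle cells and vessels. The adult ventricle lives mainly on fatty acids, which are burnt in mitochondria to drive contraction and the calcium pump of the sarcoplasmic reticulum, and a loaded heart is known to lower these genes and to raise natriuretic peptides.

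The 5 libraries were not alike. HF week 3 library 1 lists 12816 genes above 0, against 18091 in HF week 3 library 2 and 17469 to 18084 at HF week 5. In this library 1192 of the genes tested are listed at 0, compared with 45 to 59 in the other 4, and the 5th percentile of its values above 0 was 0.359 FPKM, against 0.0283 to 0.0349. Across the 12759 genes tested its Pearson correlation with HF week 3 library 2 was 0.885, while HF week 3 library 2 correlated at 0.951 to 0.960 with the 3 libraries of week 5. Genes are not independent replicates, and the values describe likeness only. In HF week 3 library 2 the 10 highest genes held 37.5% of the FPKM, against 17.4% to 19.8% in the other 4.

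Markers of cells outside the ventricular muscle also differed between the libraries. The atrial myosin light chain Myl7 was at 1805 and 5773 FPKM in the week 3 libraries and at 18388, 152 and 6.16 FPKM in the week 5 libraries, against 0.166 to 1.12 FPKM in the control. Summed over the 7 atrial marker genes compared, the level was 8001 and 14268 FPKM at week 3 and 40548, 465 and 47.9 FPKM at week 5, against 51.9 to 61.6 FPKM in the control, and none of the 7 passed the test between the weeks. The mesothelial and epicardial markers, genes of the sheet of cells that covers the heart, summed to 94.4 and 270.9 FPKM at week 3, to 101.5, 37.5 and 13.9 FPKM at week 5 and to 2.82 to 4.17 FPKM in the control. Of 8 of these genes 4 were called lower at week 5 with no overlap between the weeks (50%, against 6.26% of all genes), namely Krt8, Krt18, Krt19 and Upk1b. HF week 5 library 1 thus carried more of both marker groups than HF week 3 library 1 did, and its values are given apart wherever a result turns on them. In bulk tissue fewer cells of a type cannot be told apart from less RNA per cell. Of 10 ventricular markers Myh6 could not be compared and Actc1, Myl2 and Mb are listed at 0 in every control library. The other 9 together summed to 49885 and 59944 FPKM at week 3 and to 46434, 102097 and 96616 FPKM at week 5, with a median difference of 0.57, and 2 of the 9 were called higher with no overlap (22.2%, against 9% of all genes), Tnnt2 and Ryr2, and none without HF week 3 library 1. Tnnt2, the cardiac troponin T, was at 4391 and 5662 FPKM at week 3 and 6741, 8550 and 6972 FPKM at week 5.

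Some of the highest genes of the heart could not be compared at all. Myh6, the main myosin heavy chain of the adult mouse heart, was at 37546 and 301793 FPKM at week 3 and is listed at 0 in all libraries of week 5 and of the control. Nppa, the atrial natriuretic peptide, is listed at 0 in both week 3 libraries and was at 42004, 2100 and 2214 FPKM at week 5. The mitochondrial rows Cytb and mt-Nd4 are listed at 0 in all week 5 and control libraries too. Since each is a gene that these tissues use, a value of 0 may be a failed estimate, and no fold is given for them. In all 39 of the genes tested are listed at 0 in both week 3 libraries and 23 in all 3 week 5 libraries, and they are left out of the gene lists and of the genes named for their difference, but not of the counts over all genes.

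Whether the hearts changed between 2 and 4 weeks of angiotensin II was asked with limma over all 24 libraries. At an adjusted p under 0.05, 2732 of 12759 genes were called, 21.4% of those tested, with 1675 (13.1%) higher and 1057 (8.28%) lower at week 5. Because the week 3 libraries differ so much, a gene was counted as agreeing only when both of them lay on one side of all 3 week 5 libraries. This left 1947 called genes (15.3%), of which 1148 (9%) were higher and 799 (6.26%) lower at week 5. The typical change was moderate, with a median size of 0.90 on the log2 scale among the higher genes and 0.84 among the lower ones, and 483 and 291 of them differed at least 2-fold. The median over all genes tested was 0.08.

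These counts rest on the spread of all 8 groups and on HF week 3 library 1. Without that library 56 genes were called higher and 110 lower, with HF week 3 library 1 alone standing for week 3 the calls were 4034 and 2709, and leaving out HF week 5 library 2 or 3 gave 561 and 396 or 806 and 539. Of the 1947 agreeing calls, 29 fell below the filter without HF week 3 library 1, 831 had an unadjusted p under 0.05 there and 125 kept the call, 52 higher and 73 lower. Their direction is fixed by the rule that the libraries do not overlap. With only the 5 HF libraries in the fit, which leaves 3 residual degrees of freedom instead of 16, limma called 8 genes, 2 higher and 6 lower, while 854 had an unadjusted p under 0.05. Of these 8 genes, 7 are listed at 0 in all libraries of a week, and the other, 4632411B12Rik, was at 0 and 0.0029 FPKM at week 3 and at 5.06, 6.24 and 4.86 FPKM at week 5. No other gene named here was called in that fit. The calls below are those of the fit over all groups. Genes named only for a control library are left out of what follows. Of the other called genes named, Tom40 fell below the filter without HF week 3 library 1. Agtr1a, Ccl9, Fggy, H2-gs10, Hadh, Hadha, Lgals7, Lox, Loxl2, Ltbp3, Mt1, Pdha1, Pdia6, Rcan1, Tbc1d10c and Timp1 were not called without HF week 3 library 1. AK219629, Ifit3, Isg15, Kcnj11, Ldb3, Prkaca and Ryr2 lost the call without it and also without HF week 5 library 2, and Cma1 without it and also without HF week 5 library 3. C5ar1, Cfb, Ctgf, Gnas, Krt18, Npr1, Postn, Prdx3, Tnnt2 and Twist2 lost it without any one of these 3 libraries, C5ar1 and Postn also without HF week 3 library 2, and Upk1b without HF week 3 library 2 alone.

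**Figure D1:**
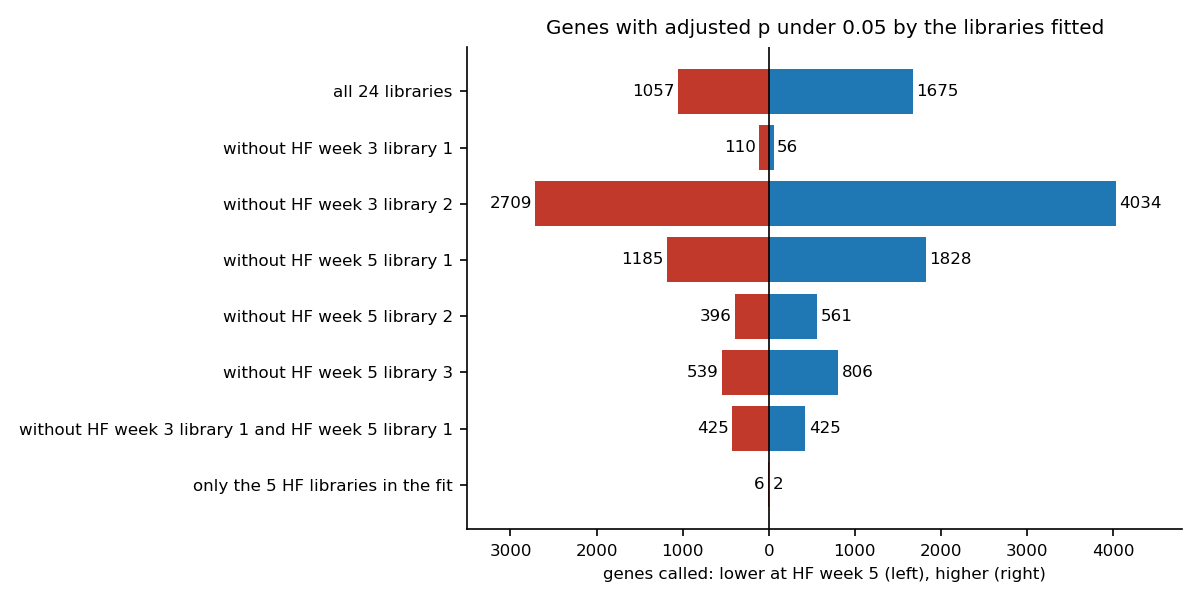
Number of genes with an adjusted p under 0.05 in HF week 5 against HF week 3 (horizontal axis, lower genes to the left and higher genes to the right) for the fit of all 24 libraries and for fits that leave out the libraries named on the vertical axis. The count falls from 1675 higher and 1057 lower genes to 56 and 110 without HF week 3 library 1, and to 2 and 6 with only the 5 HF libraries.

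Of the gene lists compared, collagens had the highest share of called members in the fit of all 24 libraries, though not in every fit that left libraries out. They fell from week 3 to week 5. All 16 collagen genes compared had a lower mean at week 5, and 14 of them were called lower with no overlap between the weeks (87.5%, against 6.26% of all genes), with a median log2 difference of -1.34. The exceptions were Col6a2 and Col6a3, whose libraries overlapped. Without HF week 3 library 1 the median was -1.02. Without both HF week 3 library 1 and HF week 5 library 1, a pair chosen after seeing the data, it was -1.08. The mean of the collagens on the log2 scale stood 1.998 and 1.46 above Control week 19 in the week 3 libraries and 0.54, 0.31 and 0.50 above it in those of week 5. The summed mesothelial markers, 94.4 and 270.9 FPKM at week 3 and 101.5, 37.5 and 13.9 FPKM at week 5, were also lower in 2 of the 3 week 5 libraries than in either week 3 library, and their part in the collagen difference was not tested. The median collagen difference from the control was 1.79 at week 3 and 0.36 at week 5, comparisons that share the control libraries, in which 23.1% and 11.6% of all genes were called higher.

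Type I and type III collagen form the fibres of scar. Col3a1, which encodes the chain of type III collagen, was at 191 and 124 FPKM at week 3 and at 53.0, 31.0 and 47.5 FPKM at week 5, and the control lay between 24.5 and 29.4 FPKM. The difference was -1.84 (SE 0.23), with an adjusted p of 0.000109 in limma, and it was called without any one of the 5 libraries. Col1a1, the first chain of type I collagen, was at 100.4 and 56.1 FPKM at week 3 and at 30.2, 21.2 and 23.8 FPKM at week 5, with a difference of -1.58 (SE 0.24, adjusted p 0.00064), and the control lay between 12.7 and 22.7 FPKM. In both genes the lower of the week 3 libraries is above every week 5 library. Basement membrane collagen went the same way, with Col4a1 at 150.1 and 117 FPKM at week 3 and at 40.9, 55.8 and 73.3 FPKM at week 5 (difference -1.26, SE 0.17, adjusted p 0.000206), close to the control range of 44.0 to 54.0 FPKM. Col15a1, a collagen at the border of basement membranes, was at 28.6 and 32.3 FPKM against 14.6, 15.4 and 18.3 FPKM, with a difference of -0.90 (SE 0.13).

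Other structural proteins of the matrix were called lower in part. Of 30 matrix and matricellular genes, 8 were called lower with no overlap (26.7%, against 6.26% of all genes) and none higher, 7 were called lower without HF week 3 library 1, and the median was -0.82. Eln, the precursor of elastic fibres, was at 541 and 92.4 FPKM at week 3 and at 27.3, 18.6 and 23.3 FPKM at week 5, a difference of -3.27 (SE 0.41, adjusted p 0.000129) that was -1.997 without HF week 3 library 1 and still called. Vcan, a large proteoglycan of provisional matrix, was at 10.5 and 7.86 FPKM and fell to 2.84, 1.78 and 1.93 FPKM (difference -1.86, SE 0.21, adjusted p 2.43e-05), within or near its control range of 1.24 to 2.19 FPKM. Sparc, a collagen-binding protein, was at 704 and 855 FPKM at week 3 and at 347, 284 and 353 FPKM at week 5 (difference -1.25, SE 0.17). In these 3 genes the weeks do not overlap and the week 5 libraries lie close together. The injury-induced Postn and Ctgf passed the test by less. Postn, periostin of activated fibroblasts, was at 40.1 and 60.6 FPKM at week 3 and at 34.4, 11.5 and 18.1 FPKM at week 5 (difference -1.33, SE 0.41, adjusted p 0.0301), and Ctgf, a growth factor of connective tissue, was at 210 and 165 FPKM and at 143, 87.4 and 82.7 FPKM (difference -0.88, SE 0.27, adjusted p 0.0286). In both genes HF week 5 library 1 is the nearest to week 3 and all week 5 libraries stand above the control.

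**Figure D2:**
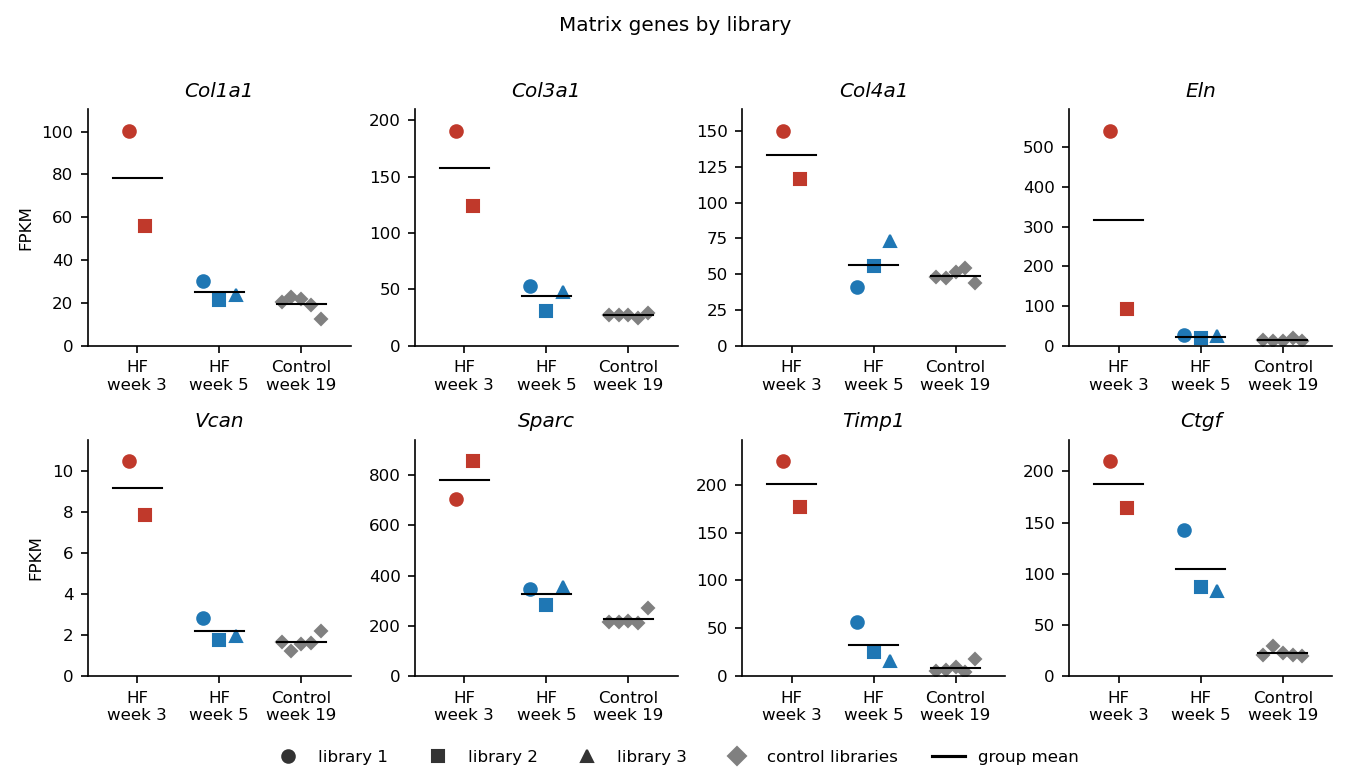
FPKM (vertical axes, from 0) of 8 matrix genes in each library of HF week 3, HF week 5 and Control week 19 (horizontal axes), with symbols for the library number within a HF group and a line at the group mean. Both week 3 libraries lie above all week 5 libraries in each gene, and those of Col1a1, Eln and Vcan at week 5 come near the control while those of Ctgf stay above it.

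Of 24 genes of enzymes that build, crosslink and cut the matrix, and of their inhibitors, 12 were called lower with no overlap (50%, against 6.26% of all genes), none higher, with a median of -0.84, and 5 were called lower without HF week 3 library 1. Timp1, an inhibitor of matrix metalloproteinases, was at 225 and 176 FPKM at week 3 and at 57.0, 25.1 and 16.2 FPKM at week 5 (difference -2.78, SE 0.67, adjusted p 0.0121). The collagen crosslinkers Lox and Loxl2 went from 3.38 and 2.46 FPKM to 1.51, 0.549 and 0.636 FPKM and from 8.31 and 6.67 FPKM to 3.16, 2.93 and 3.40 FPKM, with differences of -1.34 (SE 0.25) and -1.12 (SE 0.22). Adamts8, a metalloprotease with thrombospondin repeats, was at 6.88 and 11.95 FPKM at week 3 and at 3.01, 0.806 and 0.317 FPKM at week 5, a difference of -2.63 (SE 0.38), with the control at 0.132 to 0.254 FPKM. Its order among the week 5 libraries is the order of the mesothelial markers, and their part in this difference was not tested.

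The 250 bases before the transcription start are shown for 4 genes of the collagen and matrix protein lists, those with the lowest adjusted p among the members that were called without each of the 5 libraries in turn and have 1 entry in the RefSeq table, because these genes were all lower at week 5. They are from RefSeq on GRCm38.p6, another build than the one of the expression values, and were matched by symbol: Vcan at chr13:89742513-89742762 on the minus strand, Col3a1 at chr1:45311288-45311537 on the plus strand, Col4a1 at chr8:11312827-11313076 on the minus strand and Sparc at chr11:55420081-55420330 on the minus strand. Capitals mark matches on either strand to TATAAA (the TATA box), CCAAT (the CCAAT box), GGGCGG (the GC box), TGANTCA (bound by AP-1), AAGGTCA (bound by nuclear receptors such as ERR) or CTANNNNTAG (bound by MEF2).
Vcan: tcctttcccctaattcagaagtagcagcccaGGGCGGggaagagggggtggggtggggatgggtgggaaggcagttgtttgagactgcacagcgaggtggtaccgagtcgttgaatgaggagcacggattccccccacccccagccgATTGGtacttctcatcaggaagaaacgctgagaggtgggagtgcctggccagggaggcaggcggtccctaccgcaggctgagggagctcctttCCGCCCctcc
Col3a1: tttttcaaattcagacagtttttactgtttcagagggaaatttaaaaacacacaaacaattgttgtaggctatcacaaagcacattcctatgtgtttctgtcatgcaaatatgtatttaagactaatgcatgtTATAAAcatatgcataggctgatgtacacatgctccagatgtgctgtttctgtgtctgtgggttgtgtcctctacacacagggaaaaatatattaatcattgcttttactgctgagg
Col4a1: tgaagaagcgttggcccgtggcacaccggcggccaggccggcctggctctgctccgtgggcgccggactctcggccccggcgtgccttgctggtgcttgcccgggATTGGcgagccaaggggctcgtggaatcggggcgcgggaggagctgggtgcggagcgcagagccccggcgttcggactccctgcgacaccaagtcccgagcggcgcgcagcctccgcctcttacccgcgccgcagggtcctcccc
Sparc: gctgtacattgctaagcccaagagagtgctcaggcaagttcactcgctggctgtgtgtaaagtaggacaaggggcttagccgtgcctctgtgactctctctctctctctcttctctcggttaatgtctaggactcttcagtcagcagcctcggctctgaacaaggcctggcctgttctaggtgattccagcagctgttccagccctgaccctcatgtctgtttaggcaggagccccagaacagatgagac
Among all 32851 windows of this length in the table, 12.4% hold TATAAA, 33.8% CCAAT, 32.7% GGGCGG, 6.75% TGANTCA, 4.08% AAGGTCA and 3.2% CTANNNNTAG. Col3a1 holds TATAAA 117 bases before the start, and Vcan and Col4a1 hold CCAAT on the strand opposite to the one printed. Vcan holds GGGCGG on each strand, and Sparc holds none of these letters in this window. No motif searched is in all 4 windows.

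Fewer members were called among the signals that drive fibroblasts. Of 22 genes of transforming growth factor beta and fibroblast activation, 4 were called lower with no overlap (18.2%, against 6.26% of all genes). The list median was -0.38. All 4 lost the call when HF week 3 library 1 was left out. The clearest was Ltbp3, which holds the latent growth factor in the matrix, at 28.5 and 25.5 FPKM at week 3 and at 19.1, 13.01 and 12.3 FPKM at week 5 (difference -0.87, SE 0.18, adjusted p 0.00477). Of the 12 genes of the transition from endothelium to mesenchyme that the study text names, 2 were called lower with no overlap (16.7%, Ctgf and Twist2) and none higher, and none was called without HF week 3 library 1. The study drew these genes from the literature and its text names them beside their levels in these hearts, so their direction is not independent evidence. The cardiac fibroblast markers, 10 genes, had 2 called lower (20%), 1 of them without HF week 3 library 1, and a median of -0.35.

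Within the renin-angiotensin system Ace and Agtr1a went in opposite directions. Ace, the enzyme that makes angiotensin II, was at 54.3 and 48.2 FPKM at week 3 and at 25.3, 18.7 and 28.6 FPKM at week 5 (difference -1.09, SE 0.18, adjusted p 0.00103), near the control at 22.3 ± 2.09 FPKM (SD, n = 5). Agtr1a, the main receptor of angiotensin II, was at 0.865 and 2.56 FPKM at week 3 and at 3.66, 7.87 and 5.96 FPKM at week 5 (difference 1.57, SE 0.29, adjusted p 0.00255), below the control at 9.55 to 14.4 FPKM. The weeks do not overlap in either gene. Ace was called without each of the 5 libraries in turn. Cma1, the mast cell chymase, was also called lower. In the list of nitric oxide and cyclic GMP signalling, the pathway that L-NAME blocks, 1 of 15 genes was called lower with no overlap (6.67%, against 6.26% of all genes) and none without HF week 3 library 1, the natriuretic peptide receptor Npr1 (18.3 and 17.7 FPKM at week 3 and 14.5, 10.3 and 9.85 FPKM at week 5).

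Of 24 interferon-stimulated genes 7 were called lower with no overlap (29.2%) and none higher, with a median of -0.46, and none was called without HF week 3 library 1. Ifit3 was at 23.0 and 21.6 FPKM at week 3 and at 8.32, 6.47 and 12.6 FPKM at week 5 (difference -1.29, SE 0.31, adjusted p 0.012), and Isg15, a ubiquitin-like protein, was at 46.4 and 28.1 FPKM and at 11.5, 10.5 and 26.1 FPKM (difference -1.27, SE 0.32, adjusted p 0.0149). HF week 5 library 3 was the highest of its group in both. In the list of endoplasmic reticulum and integrated stress response 7 of 25 genes were called lower with no overlap (28%, against 6.26% of all genes) and 1 higher (4%, against 9%). The lowest adjusted p was that of the protein disulfide isomerase Pdia6, at 123 and 70.9 FPKM at week 3 and at 42.3, 54.3 and 42.4 FPKM at week 5 (difference -1.01, SE 0.17, adjusted p 0.00164). The list median of -0.27 became -0.15 without HF week 3 library 1. Mt2, a metal-binding protein induced by stress hormones and metals, went from 1244 and 2392 FPKM at week 3 to 706, 150.1 and 99.98 FPKM at week 5 (difference -2.97, SE 0.56, adjusted p 0.00316), and held its call without HF week 3 library 1. Its highest week 5 library is library 1. Its list, oxidant producing and antioxidant enzymes, had 2 of 23 genes called lower (8.7%, against 6.26% of all genes), Mt1 and Mt2, and 1 higher (4.35%, against 9%), the mitochondrial peroxiredoxin Prdx3, and of these 3 only Mt2 was called without HF week 3 library 1.

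Among cytokines, chemokines and acute phase genes 1 of 30 was called lower with no overlap (3.33%, against 6.26% of all genes), the chemokine Ccl9 (70.1 and 26.4 FPKM at week 3 and 19.8, 4.26 and 4.83 FPKM at week 5). Of 17 complement genes 2 were called lower with no overlap (11.8%), Cfb and C5ar1, while without HF week 3 library 1 the 2 called lower were C2 and C3, named here after their values were seen. Of 24 cell cycle genes 3 were called lower (12.5%) and 1 higher (4.17%). No cytokine or cell cycle gene was called without HF week 3 library 1. Macrophage markers had 1 of 12 genes called in each direction (8.33%, against 9% of all genes higher and 6.26% lower) and a median of -0.01. Endothelial markers had 1 of 12 called lower (8.33%) with a median of -0.16, and smooth muscle and pericyte markers 1 of 11 (9.09%) with a median of 0.19, shares near the 6.26% of all genes. Skeletal muscle markers had 2 of 6 called lower (33.3%, against 6.26% of all genes). No gene of the lymphocyte (4 genes compared), neutrophil (3), erythroid (3), adipocyte (6), Schwann cell (4) and lung epithelial (1) markers was called with no overlap.

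The genes that run on fuel and oxygen were called in the other direction where they were called. Of 39 genes of fatty acid uptake and oxidation 10 were called higher with no overlap (25.6%, against 9% of all genes), none lower, with a median of 0.60. In the tricarboxylic acid cycle it was 6 of 19 (31.6%) with a median of 0.77, among nuclear subunits of the respiratory chain 19 of 69 (27.5%) with a median of 0.49, and in glucose use and glycolysis 4 of 27 (14.8%) with a median of 0.43. The medians were 0.51, 0.58, 0.33 and 0.28 in the same order when HF week 3 library 1 was left out, and 1, 1, 1 and 0 members were then called higher. HF week 5 library 1 lay near week 3 in these lists, with a mean of fatty acid genes at -1.09 from the control, against -1.38 and -1.20 at week 3 and -0.31 and -0.71 in the other week 5 libraries. HF week 3 library 1 and HF week 5 library 1 were also left out together, a pair chosen after seeing the data. The medians were then 0.75 for fatty acid genes, 0.77 for the tricarboxylic acid cycle, 0.51 for the respiratory chain and 0.55 for glycolysis. Leaving out the week 5 library nearest to week 3 widens these differences by itself, and week 3 then rests on HF week 3 library 2 alone. With the same pair left out the median was -3.69 for the atrial, -3.17 for the mesothelial and 0.57 for the ventricular markers. The ventricular markers stood, like the fuel genes, lowest in the week 3 libraries and HF week 5 library 1, with means at -0.82 and -0.48 from the control at week 3 and at -0.52, 0.13 and -0.14 at week 5. The part of any of these cell types in the fuel genes was not tested.

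Acot1, a thioesterase that splits acyl-coenzyme A in the cytosol, was at 1.19 and 1.33 FPKM at week 3 and at 6.43, 8.05 and 3.03 FPKM at week 5 (difference 1.76, SE 0.28, adjusted p 0.000798), below the control at 9.12 to 11.9 FPKM. It was the 1 fatty acid gene called without HF week 3 library 1. Hadh and Hadha, dehydrogenases of beta-oxidation, were at 39.4 and 83.2 FPKM and at 65.3 and 82.8 FPKM at week 3 and at 95.5, 198 and 180 FPKM and 96.2, 209 and 185 FPKM at week 5, with differences of 1.38 (SE 0.27) and 1.07 (SE 0.22). In both the week 5 libraries 2 and 3 are close together and library 1 lies just above week 3. Sdha, the flavoprotein of succinate dehydrogenase, was at 111 and 109 FPKM at week 3 and at 145, 239 and 201 FPKM at week 5 (difference 0.79, SE 0.16, adjusted p 0.00409), with the control at 368 to 462 FPKM. Ndufs1, the largest subunit of complex I, gave the lowest adjusted p of the respiratory chain, 0.000502, at 40.2 and 41.3 FPKM at week 3 and 63.7, 93.7 and 88.8 FPKM at week 5 (difference 0.98, SE 0.15), with the control at 130 to 172 FPKM. Pdha1, a subunit of the pyruvate dehydrogenase complex, was at 73.9 and 115 FPKM and at 139, 206 and 184 FPKM (difference 0.91, SE 0.16). Levels at week 5 thus lay between those of week 3 and the control in each of these genes.

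**Figure D3:**
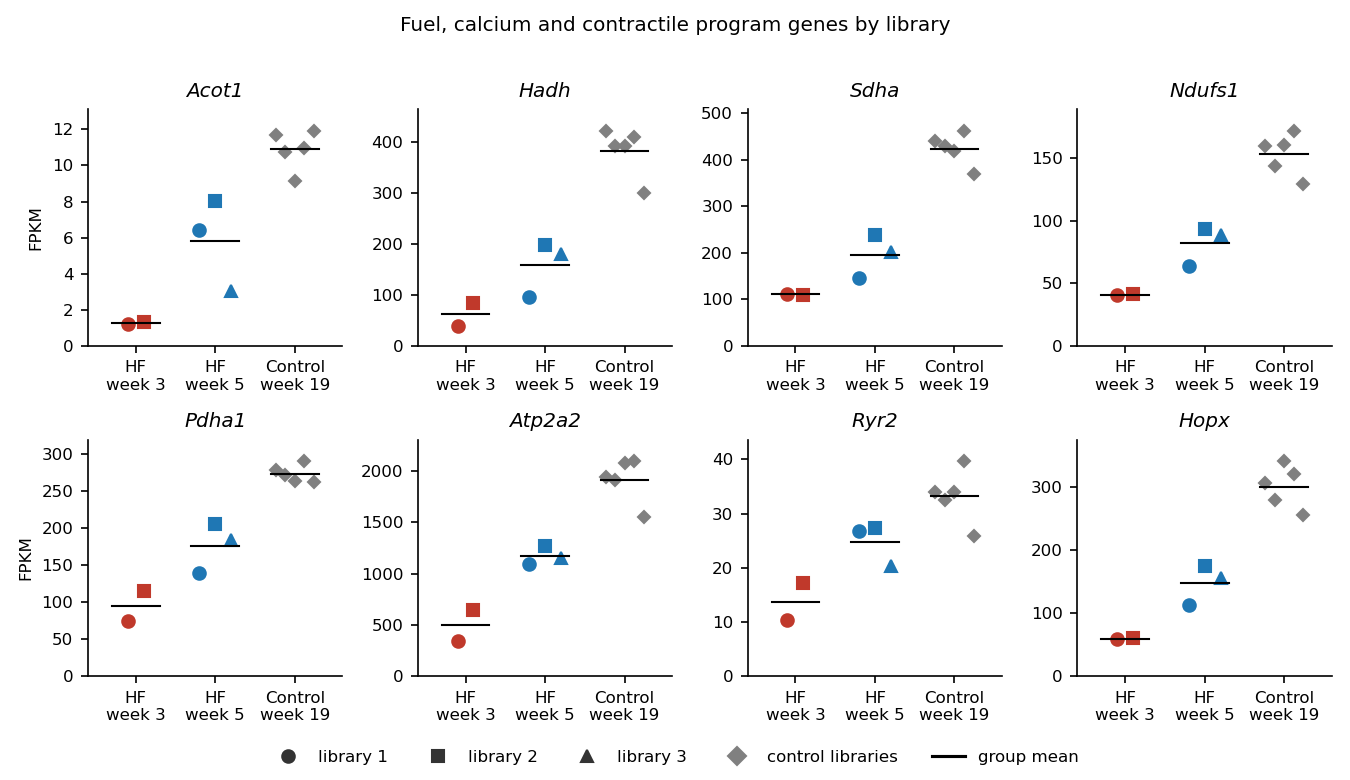
FPKM (vertical axes, from 0) of 8 genes of fuel use, calcium handling and the cardiomyocyte program in each library of HF week 3, HF week 5 and Control week 19 (horizontal axes), with symbols for the library number within a HF group and a line at the group mean. All week 5 libraries lie above both week 3 libraries, by little in library 1 for Hadh and Pdha1, and the mean of week 5 is below that of the control in each gene.

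The windows before the start of the 2 genes of the fatty acid and tricarboxylic acid lists that met the same rule are shown for comparison with the matrix genes, Acot1 at chr12:84009252-84009501 on the plus strand and Sdha at chr13:74350241-74350490 on the minus strand of GRCm38.p6, from RefSeq and with the same capitals.
Acot1: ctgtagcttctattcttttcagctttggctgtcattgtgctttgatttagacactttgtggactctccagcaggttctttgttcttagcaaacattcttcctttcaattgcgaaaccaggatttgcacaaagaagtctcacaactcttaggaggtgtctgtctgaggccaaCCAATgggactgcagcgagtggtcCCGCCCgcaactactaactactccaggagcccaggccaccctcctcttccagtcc
Sdha: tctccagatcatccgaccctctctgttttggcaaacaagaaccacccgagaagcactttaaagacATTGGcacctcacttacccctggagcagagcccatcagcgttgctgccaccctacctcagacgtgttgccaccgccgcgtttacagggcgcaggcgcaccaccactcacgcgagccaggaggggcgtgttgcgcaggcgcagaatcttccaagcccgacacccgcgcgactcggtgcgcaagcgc
Both hold CCAAT, on the strand printed in Acot1 and on the strand opposite to the one printed in Sdha. CCAAT is in 4 of the 6 windows shown and in 33.8% of all windows, and Acot1 holds GGGCGG. Neither holds AAGGTCA or CTANNNNTAG in this window.

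Calcium handling and contraction genes were called higher in part. Of 29 calcium handling genes 5 were called higher with no overlap (17.2%) and none lower, and with HF week 3 library 1 left out 1 was called higher and the median of 0.40 became 0.16. Atp2a2, the calcium pump SERCA2, was at 344 and 646 FPKM at week 3 and at 1097, 1274 and 1153 FPKM at week 5 (difference 1.31, SE 0.20, adjusted p 0.000531), below the control at 1555 to 2098 FPKM. This gene was called without each of the 5 libraries in turn, and its week 5 libraries, library 1 included, lie close together. Ryr2, the calcium release channel, was at 10.4 and 17.1 FPKM at week 3 and at 26.8, 27.3 and 20.4 FPKM at week 5 (difference 0.86, SE 0.24, adjusted p 0.0199). Of 29 sarcomere genes 6 were called higher (20.7%, against 9% of all genes) and none without HF week 3 library 1, with a median of 0.34, led by Ldb3, a protein of the Z-disc (97.1 and 226 FPKM at week 3, and 229.8, 411 and 331 FPKM at week 5). Among potassium, sodium and pacemaker channels and connexins 3 of 28 were called higher (10.7%) and 2 lower (7.14%), shares near those of all genes, 9% and 6.26%, and without HF week 3 library 1 it was 0 and 1. Gja4, connexin 37 of vessels, was lower, at 26.3 and 50.2 FPKM at week 3 and 11.8, 18.2 and 20.8 FPKM at week 5 (difference -1.12, SE 0.24, adjusted p 0.00708), and Kcnj11, a subunit of the ATP-sensitive potassium channel, was higher, at 9.92 and 13.7 FPKM and at 17.0, 30.4 and 20.0 FPKM (difference 0.88, SE 0.24, adjusted p 0.0201). In beta-adrenergic signalling 2 of 22 were called higher, Prkaca and Gnas, a share of 9.09% that is the background of 9%, and none without HF week 3 library 1.

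Of the genes by which load is usually read, Nppa is listed at 0 at week 3, and Nppb and Myh7 did not pass the test. Nppb, the B-type natriuretic peptide, was at 1487 and 1331 FPKM at week 3 and at 1155, 1664 and 1610 FPKM at week 5 (difference 0.05, SE 0.52, adjusted p 0.951), and all 5 libraries stood above the control at 232 to 619 FPKM. Myh7, the fetal myosin heavy chain, was at 111 and 45.9 FPKM at week 3 and at 237, 229 and 141 FPKM at week 5. Its libraries do not overlap, but the difference of 1.46 (SE 0.64) had an adjusted p of 0.101. Of 18 genes of hypertrophy and the fetal program compared, 4 were called higher (22.2%, against 9% of all genes) and 2 lower (11.1%, against 6.26%) with no overlap, and 1 and 0 without HF week 3 library 1. Rcan1, a target and inhibitor of calcineurin, was lower, at 117 and 74.7 FPKM at week 3 and 45.6, 55.7 and 56.0 FPKM at week 5 (difference -0.84, SE 0.19, adjusted p 0.00911). Heat shock proteins had 1 of 20 genes called higher, clock genes 1 of 17, and muscle ubiquitin ligases and autophagy genes 1 of 19 in each direction, shares below those of all genes. No immediate-early gene of 21 was called with no overlap. HF week 3 library 1 stood apart in several of them, as in Klf2, a transcription factor of the endothelium, at 359 FPKM against 70.7 FPKM in HF week 3 library 2 and 101.4, 66.6 and 92.7 FPKM at week 5. Of 78 ribosomal protein genes 3 were called higher (3.85%, against 9% of all genes), and the median of 0.37 became 0.06 when HF week 3 library 1 was left out.

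**Figure D4:**
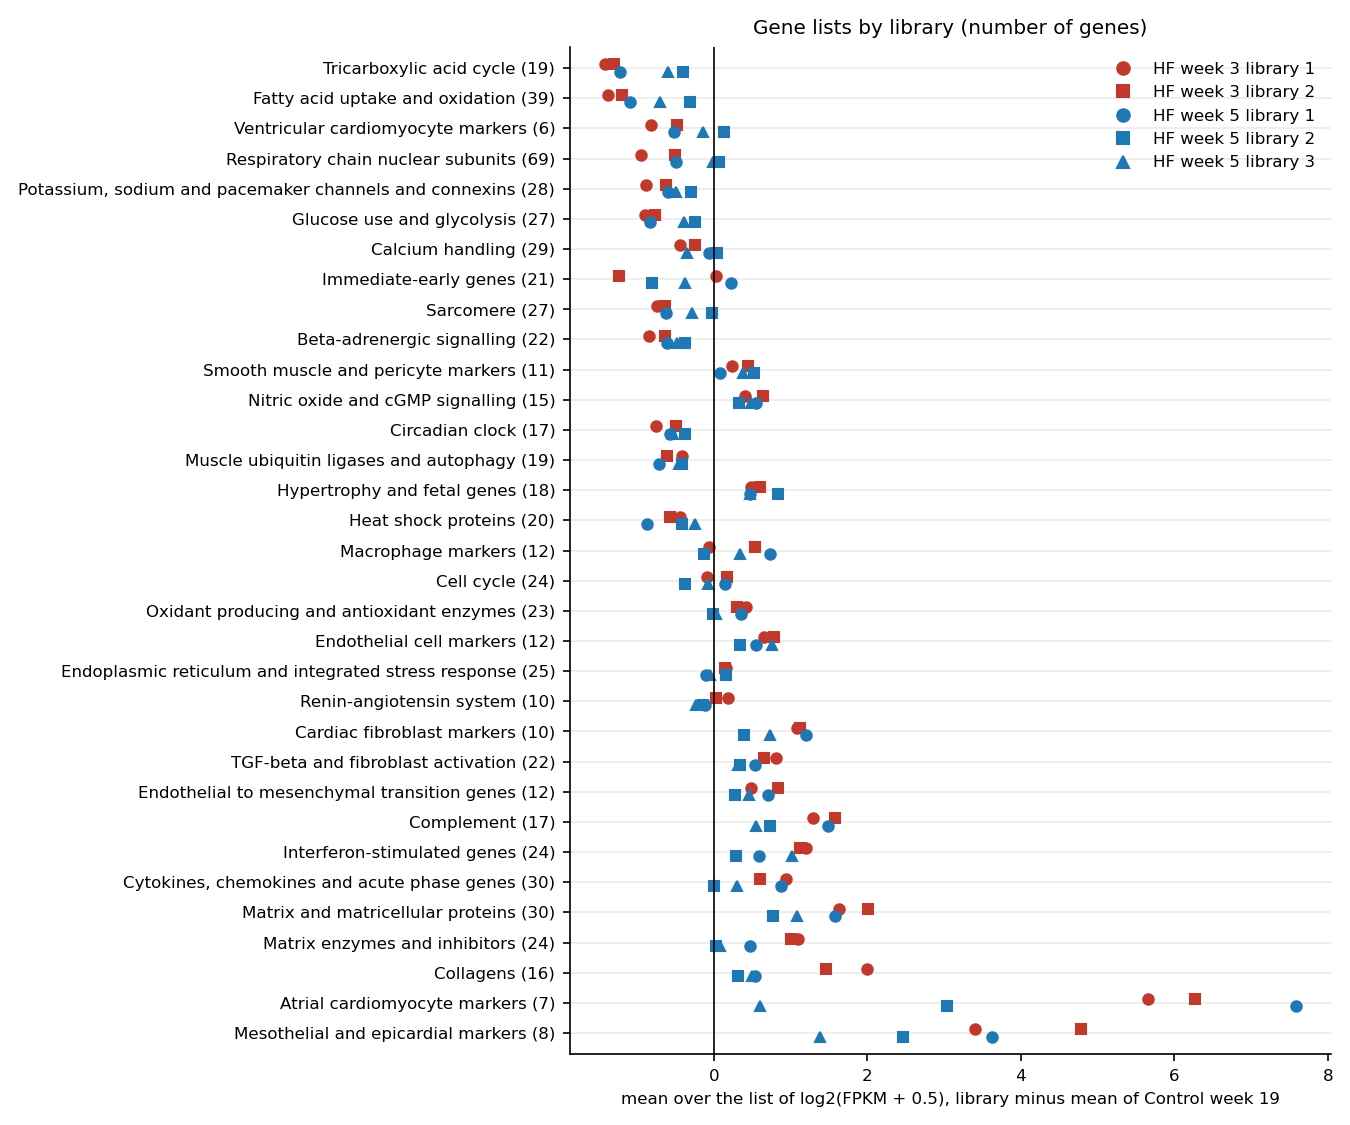
Mean over each gene list of log2(FPKM + 0.5), given for each HF library as the distance from the mean of Control week 19 (horizontal axis), with the number of genes in brackets; genes listed at 0 in a week or in every control library are left out. Collagens separate the weeks, at 1.46 and 1.998 for week 3 and 0.31 to 0.54 for week 5, whereas HF week 5 library 1 lies near week 3 for fatty acid genes and holds the highest atrial level.

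The widest gaps between the nearest libraries of the 2 weeks picked out single genes from several of these groups and some others. Among the 526 agreeing lower genes whose mean reached 5 FPKM, 11 of the 12 with the widest gap were dj-1, Tmem158, Tom40, Eln, Timp1, Gpc3, Col3a1, Lgals7, Prr15l, Col8a1 and Ckmt1. Tmem158, a membrane protein known from Ras-induced senescence, was at 15.1 and 18.1 FPKM at week 3 and at 2.23, 1.61 and 2.19 FPKM at week 5. The difference of -2.77 (SE 0.18) had an adjusted p of 3.27e-09, and the control lay at 1.44 to 2.07 FPKM, with 1 week 5 library within this range and 2 above it. Gpc3, a heparan sulphate proteoglycan of the cell surface, was at 16.6 and 25.4 FPKM and at 6.12, 3.29 and 3.33 FPKM (difference -2.20, SE 0.25, adjusted p 2.71e-05). Tmem158 and Gpc3 were called without each of the 5 libraries in turn.

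Lgals7, Prr15l and Ckmt1, the mitochondrial creatine kinase found outside striated muscle, had the order of the mesothelial markers within week 5, but at week 3, where those markers were higher in library 2, Prr15l (18.4 and 7.79 FPKM) and Ckmt1 (13.3 and 7.76 FPKM) were higher in library 1. Lgals7, a galectin of epithelia, was at 32.3 and 46.5 FPKM at week 3 and at 13.6, 6.62 and 0.288 FPKM at week 5, and Prr15l and Ckmt1 were likewise highest in library 1 and lowest in library 3, while all 3 genes were at most 0.228 FPKM in the control. The part of the covering cells in these 3 differences was not tested. The rows dj-1 and Tom40 bear other names of Park7 and Tomm40, which have rows of their own, so reads may have been split between them. Park7 was at 242 and 291 FPKM at week 3 and at 270, 411 and 361 FPKM at week 5, where dj-1 went from 92.8 and 38.9 FPKM to 1.82, 1.95 and 3.55 FPKM, and both dj-1 and Tom40 are uncertain for this reason.

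At the other end, the 12 of 645 agreeing higher genes with the widest gap were Pla2g5, H2-gs10, Spata24, Cirbp, Acyp2, Efnb3, Fggy, Otud1, Ces1d, Tbc1d10c, Hopx and AK219629. Pla2g5, a secreted phospholipase, was at 2.61 and 1.36 FPKM at week 3 and at 10.01, 9.96 and 8.71 FPKM at week 5, with a difference of 2.06 (SE 0.29, adjusted p 0.000355), and the control lay at 11.3 to 25.4 FPKM. Hopx, a homeodomain protein of the cardiomyocyte, was at 58.1 and 60.6 FPKM and at 113, 174 and 155 FPKM (difference 1.28, SE 0.17, adjusted p 0.000228), against 255 to 340 FPKM in the control. Acyp2, the muscle acylphosphatase, was at 27.9 and 41.2 FPKM and at 83.5, 90.5 and 112 FPKM (difference 1.47, SE 0.19, adjusted p 0.000179). In these 3 genes the week 3 libraries are low and the week 5 libraries stand between them and the control.

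Cirbp, an RNA-binding protein induced by cold, differed in that it reached or passed the control, at 18.95 and 17.3 FPKM at week 3 and 75.1, 42.4 and 41.6 FPKM at week 5 (difference 1.47, SE 0.24, adjusted p 0.00125), with the control at 24.5 to 41.5 FPKM. Spata24 was at 3.79 and 3.63 FPKM and at 12.5, 10.1 and 10.6 FPKM (difference 1.45, SE 0.21, adjusted p 0.000385), and its control range was 7.56 to 12.5 FPKM. Efnb3, a ligand of Eph receptors, was at 2.17 and 5.34 FPKM and at 11.03, 18.4 and 13.1 FPKM (difference 1.86, SE 0.26, adjusted p 0.000353), below 29.9 to 45.7 FPKM in the control. Ces1d, a carboxylesterase, and Otud1, a deubiquitinase, were higher by 1.46 (SE 0.28) and 1.46 (SE 0.32). Cirbp, Spata24, Efnb3, Ces1d and Otud1 do not overlap between the weeks and were called without each of the 5 libraries in turn. H2-gs10, named among histocompatibility genes, is listed at 0 in HF week 3 library 1.

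**Figure D5:**
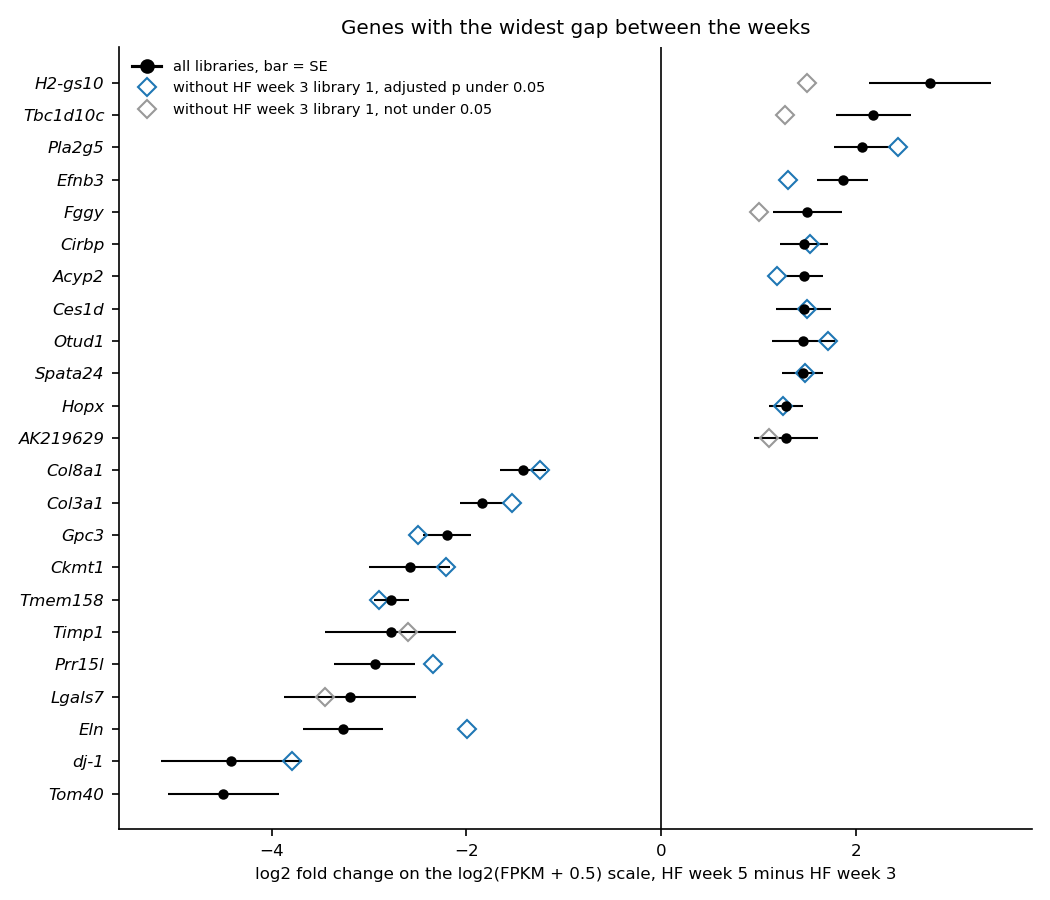
Log2 difference of HF week 5 minus HF week 3 on the log2(FPKM + 0.5) scale (horizontal axis) for the 12 higher genes and 11 of the 12 lower genes with the widest gap between the weeks, with the SE of the limma fit as bars. Open diamonds give the difference without HF week 3 library 1, in grey where the adjusted p was not under 0.05, and Tom40 has none because it then fell below the filter; Tmem158 is at -2.77 and -2.90 and Pla2g5 at 2.06 and 2.43.

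Of the 101 genes that the naming rule gave and that were called with no overlap, 47 were higher and 54 lower at week 5. Most were picked for a wide gap or a low adjusted p in these same data. No estimate for all agreeing calls can therefore be drawn from the share of these named genes that kept the call. Leaving out each of the 5 libraries in turn, 32 of them were called every time, 12 higher and 20 lower. The lower ones are dj-1, Prr15l, Ckmt1, Col1a1, Col3a1, Col4a1, Col5a2, Col8a1, Col15a1, Eln, Vcan, Sparc, Emilin1, Adamts8, Mmp19, Gpc3, Tmem158, Ace, Mt2 and Gja4, and the higher ones are Atp2a2, Hopx, Ndufs1, Sdha, Acot1, Pla2g5, Acyp2, Efnb3, Spata24, Cirbp, Ces1d and Otud1. Of these, dj-1 is uncertain because reads may have been split with Park7. Prr15l, Ckmt1, Adamts8, Mmp19 and Mt2 had the order of the mesothelial markers within week 5, and the part of the covering cells was not tested.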

How the data were processed

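RNA from mouse hearts was sequenced by the authors as paired-end poly(A) libraries and aligned to mm9 with TopHat2, and the deposited values are FPKM per gene from Cuffdiff, as the study and the submitters' processing notes name these tools. The table holds 29955 genes. Columns were matched to groups by name, and 5 columns were not used because Control week 5 has more of them than its 4 labelled samples. FPKM are not counts, so log2(FPKM + 0.5) was tested with limma 3.58.1 in R 4.3.3 over all 24 libraries in 8 groups, which share the estimate of spread (trended empirical Bayes, 16 residual degrees of freedom). Genes needed a mean of 0.5 FPKM, and 12759 passed. P-values were adjusted by Benjamini-Hochberg. The fit was tested on simulated data, where it recovered 55% of 100 genes given a log2 change of 1 and 95% of 100 given a change of 2. Each gene was drawn with the same spread in every library, so no simulated library stood apart as HF week 3 library 1 does. The simulation therefore cannot show how the fit behaves with such a library. Named genes were the 12 in each direction with the widest gap among agreeing calls whose mean reached 5 FPKM, up to 4 of each list (called and agreeing by adjusted p, otherwise the 2 highest), and Nppa, Nppb, Myh7, Col1a1, Col3a1, Postn and Ctgf. Members and lists were chosen with earlier results of these data known. Figures used Python 3.11.15 and matplotlib 3.10.9. Alternatives changed the pseudocount, filter, scaling, libraries in the fit and gap. 1 gene that the naming rule gives is not reported here. The study's own comparisons were not used.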

Additional observations from a re-analysis of the deposited data

Results flagged for a closer look

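Of 106 values looked at, 20 had a Control week 19 library far from the other 4, and chance alone gives this in about 1 of 20 groups. Library 5 was the one in 17 of them. It was the lowest for the fuel, calcium and signalling genes Hadh (300.5 FPKM, the others 391 to 422 FPKM), Hadha (299.8 FPKM, the others 363 to 382 FPKM), Pfkm (267 FPKM), Camk2a (6.98 FPKM), Kcnj11 (28.4 FPKM), Prkaca (81.8 FPKM) and Gnas (634 FPKM). It was the highest for Sparc (271 FPKM, the others 211 to 219 FPKM), Meox1 (11.4 FPKM), Cma1 (3.41 FPKM), Ifit3 (8.45 FPKM), Isg15 (14.5 FPKM), Ccnd1 (31.0 FPKM), Mcm6 (4.42 FPKM), Creld2 (21.2 FPKM), Pdia3 (66.4 FPKM) and dj-1 (4.09 FPKM). Library 4 was high for Eln (19.3 FPKM, the others 11.8 to 13.2 FPKM), and library 1 for Tom40 (0.319 FPKM) and Prr15l (0.05003 FPKM), where the others are listed at 0. These libraries enter the comparison of the weeks through the shared estimate of spread and through the filter on the mean over all libraries.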

How the results depend on the processing

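No paired analysis was possible because the letters of the labelled samples at HF week 3 and HF week 5 share none and the columns carry none. Leaving out 1 library at a time, the calls of HF week 5 against HF week 3 ranged from 56 to 4034 higher and 110 to 2709 lower genes, those without overlap from 56 to 4030 and 110 to 2706, those of HF week 3 against Control week 19 from 1845 to 3466 higher and 1985 to 4529 lower, and those of HF week 5 against Control week 19 from 535 to 2204 and 820 to 2159. With a mean of at least 5 FPKM required, 6762 genes were tested and 1098 were called higher and 619 lower (751 and 460 without overlap), with 1479 higher and 2267 lower for HF week 3 and 777 higher for HF week 5 against the control. At an unadjusted p under 0.05 there were 3028 higher and 1965 lower genes, and 2393 higher for HF week 5 against the control. With only the HF groups in the fit 2 were higher and 6 lower, both with and without the rule on overlap, and a gap of at least 1 on the log2 scale between the weeks left 23 and 31. Leaving out HF week 3 library 1 and HF week 5 library 1 together, chosen after seeing the data, gave 425 higher and 425 lower, the same without overlap, and 2243 lower for HF week 3 against the control. Higher genes were 61.3% of the calls, but 33.7% without HF week 3 library 1, 25% with only the HF groups in the fit and 50% without both libraries 1, against 63.3% after median centring, 55.8% after quantile normalization and 62.1% after removal of GC and length trends in 11945 genes, also added after seeing the data. Over the named genes that were called and these settings, 2213 values kept the call, 514 lost it and 0 turned direction, and for the named genes that were not called 69 values stayed so, 3 gained a call and 9 turned direction. No called gene named could turn direction when libraries were left out or the pseudocount changed, because its weeks do not overlap. Of the 514 lost calls, 154 were lost with only the HF groups in the fit. Where a change's cause is not the smaller number of genes or libraries itself, the cause was not tested. The 2 libraries of week 3 limit every comparison.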
